A study of Mus musculus with 4 samples.

Results

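The peak lists of a pair of FLAG libraries were compared, the library whose title names N31, EGFP and the letters OK (called EGFP_OK here) and the library whose title names Pax6. All of their peaks on chromosomes 1 to 19 were taken, 27730 for EGFP_OK and 16233 for Pax6. These 43963 peaks were part of 125574 in the 4 lists of the study, which also profiled FLAG-tagged Etv6 and histone H3 dimethylated at lysine 4 (H3K4me2). Peaks were matched by an overlap of at least 1 bp and counted in 1-Mb windows by the position of the summit.

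All libraries were made from mouse neural progenitor-like cells of ES cell origin (129/SvJ strain), used at passages 15 to 18 and grown with EGF and FGF-2. Chromatin was fixed with 1% formaldehyde for 10 min. EGFP_OK, Pax6 and Etv6 chromatin was precipitated with the M2 antibody against FLAG, and H3K4me2 chromatin with an antibody against that mark. The EGFP_OK title names no tagged protein, and the sources used here do not say which one it carried, if any. EGFP_OK and H3K4me2 titles name N31, the H3K4me2 title also naming Oct4, EGFP and 0 hr, and the Pax6 and Etv6 titles name NS. Tagged protein and cells (N31 or NS) thus changed together and cannot be told apart. The sources used here do not say how the tagged proteins were expressed or whether the cells were clonal. Each group held 1 library and no untagged or input library was used, so the spread between libraries of a group is unknown and conditions were not tested.

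Pax6 is a transcription factor with a paired domain and a homeodomain, needed in the developing eye and in radial glia, the progenitors of the forebrain. The FLAG tag is a short peptide that lets a single antibody precipitate any protein carrying it. H3K4me2 lies at promoters and enhancers that are active or poised, so its peaks are dense where regulated genes are dense and sparse in long stretches without them. Etv6 is an ETS-family factor known mainly as a repressor.

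The libraries differed in depth. The EGFP_OK library kept 21498324 tags after removal of duplicates and the Pax6 library 5288154, at redundant rates of 39% and 81%. The median EGFP_OK peak held 48 tags and was 1146 bp wide, and the median Pax6 peak held 19 tags and was 973 bp wide. The weakest called peak held 19 tags in the EGFP_OK list and 10 in the Pax6 list. The Etv6 library kept 24071748 tags and the H3K4me2 library 24550365. Intervals below are exact (Clopper-Pearson) 95% intervals of counting error. Neighbouring peaks are not independent, and the intervals say nothing of the spread between libraries.

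Most peaks of each list had no partner in the other. A Pax6 peak overlapped 3280 of the 27730 EGFP_OK peaks, which is 11.8% (11.5 to 12.2), and 3296 of the 16233 Pax6 peaks met an EGFP_OK peak, a share of 20.3% (19.7 to 20.9). For scale, Pax6 peaks covered 17.0 Mb, or 0.686% of the length of the windows, and EGFP_OK peaks 34.3 Mb, or 1.38%. The pairing was nearly one to one: of the 3298 overlapping pairs, 18 EGFP_OK peaks met more than 1 Pax6 peak and 2 Pax6 peaks met more than 1 EGFP_OK peak. The median overlap was 898 bp, beside a median width of 1056 bp for the Pax6 peaks that met an EGFP_OK peak. With summits within 200 bp as the criterion, the shares were 7.39% of EGFP_OK and 12.6% of Pax6 peaks. Restricting each list to scores of 100 or more left 12629 EGFP_OK and 4138 Pax6 peaks, with shares of 5.25% and 16.0%. The Pax6 list shrank the more, which leaves fewer possible partners for the EGFP_OK peaks. The score is 10 times the −log10 of the authors' peak-calling p-value.

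Shared summits lay in H3K4me2 more often than unshared ones, in both lists. Of the shared EGFP_OK summits, 66.6% (65.0 to 68.2) lay in an H3K4me2 peak, against 21.99% (21.5 to 22.5) of the 24450 unshared summits. Etv6 moved with this difference: an Etv6 peak overlapped 82.6% of the shared and 12.9% of the unshared EGFP_OK peaks. Among EGFP_OK peaks with an Etv6 peak, 72.2% (70.5 to 73.9) of the shared and 74.7% (73.2 to 76.2) of the unshared summits lay in H3K4me2, so the difference was not seen there. Among those without one, the shares were 40% (35.95 to 44.2) and 14.2% (13.7 to 14.6). Of the shared Pax6 summits, 67.7% (66.03 to 69.3) lay in one, against 38.3% (37.5 to 39.2) of the 12937 unshared. For Pax6 the difference was seen with an Etv6 peak, at 73.1% (71.4 to 74.7) against 45.05% (44.02 to 46.1), and without one, at 41.5% (37.4 to 45.7) against 22.5% (21.2 to 23.8). The unshared EGFP_OK summits were also far from the mark, with a median distance of 10944 bp to the nearest H3K4me2 summit, against 638 bp when shared. For Pax6 the medians were 4784 bp and 605.5 bp. Shared peaks held somewhat more tags, at a similar fold enrichment. The median tag count was 57 for shared and 47 for unshared EGFP_OK peaks, and 21 and 18 for Pax6 peaks, while the authors' median fold enrichment was 6.88 and 7.05 for EGFP_OK and 10.4 and 10.6 for Pax6.

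The overlap moved with the authors' score but not steadily with their fold enrichment, which is the summit over the local background. Each list was split by rank into 10 groups of equal size. By score, the share of EGFP_OK peaks with a Pax6 peak went from 18.4% (17.0 to 19.9) in the highest group to 12.8% in the second and 8.402% (7.40 to 9.50) in the lowest. The share of Pax6 peaks with an EGFP_OK peak went from 30.6% (28.4 to 32.9) to 23.8% and 17.3% (15.4 to 19.2). Ranked by fold enrichment, both ends of each list were shared more than the middle. The EGFP_OK share was 15.0% (13.7 to 16.4) in the highest group, 10.5% in the fifth and 15.5% (14.1 to 16.9) in the lowest. The Pax6 share was 24.7% (22.6 to 26.9), 17.3% and 26.2% (24.1 to 28.5). The EGFP_OK group with the lowest fold had 47.8% of its summits in H3K4me2, against 18.8% in the group with the highest.

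**Figure D1:**
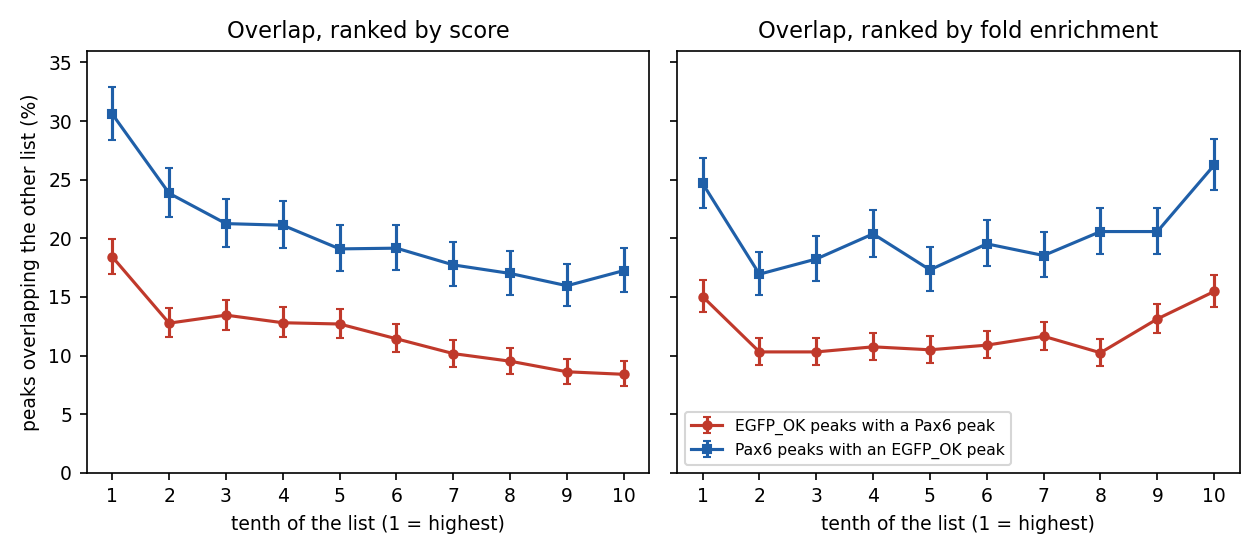
Share of peaks that overlap the other list (vertical axis, %) in 10 equal groups of each list (horizontal axis, 1 is the highest), ranked by score on the left and by fold enrichment on the right. Bars are exact 95% counting intervals. By score the shares run from 18.4% to 8.402% (EGFP_OK) and from 30.6% to 17.3% (Pax6), and by fold enrichment both ends lie above the middle.

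The Pax6 library was the shallower, which bears on what a missing Pax6 peak shows. Where both lists had a peak, the Pax6 peak held a median of 0.374 times the EGFP_OK tags (quartiles 0.234 and 0.582), against 0.246 for the libraries' kept tags. By kept tags, the median unshared EGFP_OK peak of 47 tags would give 11.6 tags in the Pax6 library, near the 10 of its weakest call, and 61.0% of the unshared EGFP_OK peaks would give 10 or more. This scaling sets no limit of detection: in the group of EGFP_OK peaks with the lowest scores, with a median of 28 tags, 233 of 2773 still had a Pax6 peak.

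Strong peaks of each list stood without a partner. The highest-scoring EGFP_OK peaks that no Pax6 peak overlapped were chr16:42780841-42783213 (545 tags, 12.3-fold, rank 6 in the list), chr10:90171429-90173094 (318 tags, 18.5-fold), chr14:118628789-118630595 (387 tags, 15.4-fold), chr10:88949433-88951050 (307 tags, 21.4-fold) and chr11:11780842-11782548 (338 tags, 17.9-fold), all in mm9. Of these 5, the chr16 peak was the one with an Etv6 peak, of 73 tags, whose summit was 817 bp away, beside 12.9% of all unshared EGFP_OK peaks with an Etv6 peak. The chr16 and chr14 summits lay in H3K4me2, beside 21.99% of all unshared EGFP_OK summits. The remaining ones were 19.05 to 31.97 kb from the nearest H3K4me2 summit. On the Pax6 side the highest without an EGFP_OK peak were chr15:42378172-42379389 (114 tags, 12.5-fold), chr8:129780897-129781856 (107 tags, 19.9-fold), chr17:91159245-91160763 (136 tags, 14.0-fold), chr4:144538752-144539964 (90 tags, 25.2-fold) and chr3:62940869-62943213 (162 tags, 10.8-fold). Each of these 5 had an Etv6 peak, of 157 to 354 tags, with its summit within 166 bp, beside 70.3% of all unshared Pax6 peaks with an Etv6 peak. The chr15, chr17 and chr3 summits lay in H3K4me2, beside 38.3% of all unshared Pax6 summits.

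The sites best ranked in both lists, after leaving out 5 places among the top 20 of all 4 lists, had their summits close together. The 10 best by their worse rank had EGFP_OK folds of 10.3 to 30.1 and Pax6 folds of 12.01 to 32.5. Their EGFP_OK and Pax6 summits were 1 to 86 bp apart, with a median of 29 bp. All 10 also had an Etv6 peak, beside 82.6% of all shared EGFP_OK peaks and 82.8% of all shared Pax6 peaks. At 5 of the 10 the EGFP_OK summit lay in an H3K4me2 peak, beside 66.6% of all shared EGFP_OK summits. At these 5 the H3K4me2 summit was within 38 bp, so they had a summit in all 4 libraries, H3K4me2 included. At chr2:57481301-57482746 the EGFP_OK peak held 249 tags (25.8-fold), the Pax6 peak 195 tags (26.2-fold) and the Etv6 peak 205 tags (29.4-fold), and the EGFP_OK and H3K4me2 summits were 0 bp apart. At chr8:86280151-86281050 the tags were 143, 120 and 156 and the H3K4me2 summit was 4 bp away. At chr12:44073280-44074581 they were 203, 57 and 156, and the nearest H3K4me2 summit was 49.3 kb away.

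Peaks were then counted in 1-Mb windows. Pax6 counts were multiplied by 1.71, the ratio of the list lengths. Of 2346 windows with a peak of any of the 4 lists, 686 held at least 20 EGFP_OK peaks or at least 20 scaled Pax6 peaks, which takes 12 Pax6 peaks, and only these were compared with a fold of 3 and are called tested. In 65 of the 686 (9.48%) the EGFP_OK count was at least 20 and at least 3 times the scaled Pax6 count, and in 61 (8.89%) the scaled Pax6 count was at least 20 and at least 3 times the EGFP_OK count. The call used a fixed size, with no p-value. They are called EGFP_OK-rich and Pax6-rich windows. Their FLAG counts chose them and are given as a description. The EGFP_OK-rich windows held 1568 EGFP_OK and 137 Pax6 peaks, and the Pax6-rich windows 432 and 1060. With scores of at least 100 in each FLAG list, 4 windows were EGFP_OK-rich and 51 Pax6-rich at the minimum of 20. With that minimum lowered in proportion to the shorter list they numbered 126 and 185. The lists then held 12629 EGFP_OK and 4138 Pax6 peaks, so Pax6 counts were multiplied by more than 1.71. Fewer Pax6 peaks thus reach the minimum, and the 2 kinds are not called on equal terms.

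**Figure D2:**
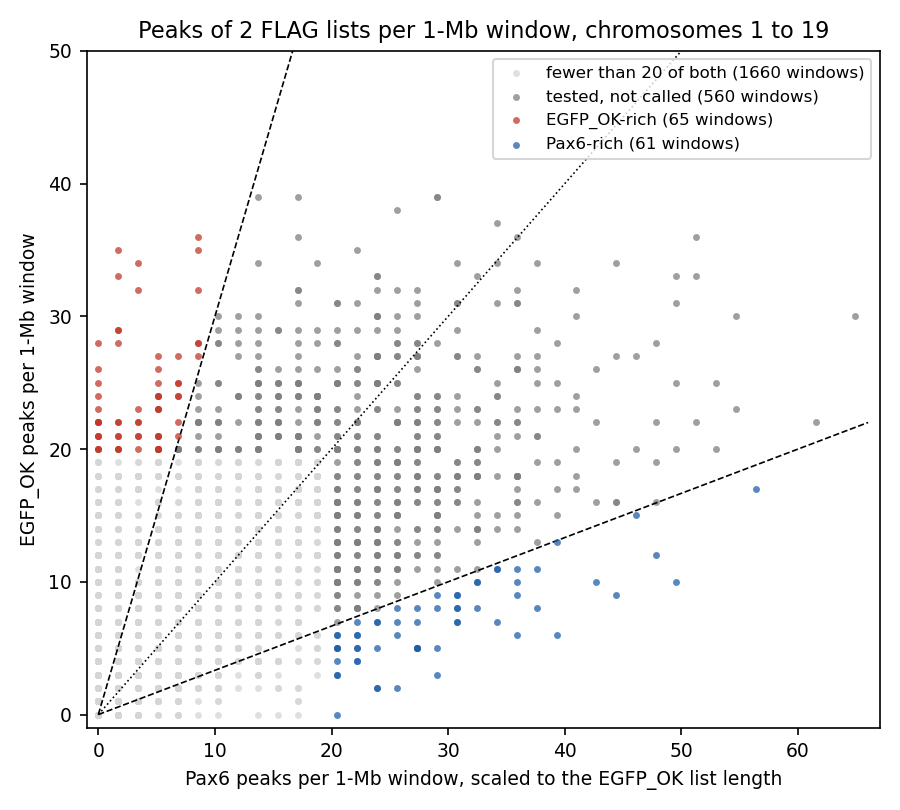
EGFP_OK peaks (vertical axis) against Pax6 peaks scaled to the EGFP_OK list length (horizontal axis) in each 1-Mb window with a peak. Counts are whole, so points of several windows coincide. Dashed lines mark the 3-fold limits and the dotted line equal counts, and the 65 EGFP_OK-rich and 61 Pax6-rich windows lie beyond the dashed lines.

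The windows did not fall into separate groups by ratio. Beside the called windows, 41 windows with at least 20 EGFP_OK peaks and 90 with at least 20 scaled Pax6 peaks lay between 2-fold and 3-fold. Just inside the limit for EGFP_OK were chr18:10000001-11000000, with 21 EGFP_OK and 4 Pax6 peaks (3.07-fold), and chr3:113000001-114000000, with 27 and 5 (3.16-fold). Just outside were chr5:79000001-80000000 and chr7:102000001-103000000, each with 20 and 4 (2.93-fold). For Pax6, chr5:4000001-5000000 (23 Pax6 and 13 EGFP_OK peaks, 3.02-fold) and chr12:74000001-75000000 (27 and 15, 3.07-fold) were just inside. Just outside were chr2:117000001-118000000 (28 and 16) and chr11:7000001-8000000 (14 and 8), both at 2.99-fold.

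The EGFP_OK-rich windows were nearly empty of Pax6 peaks. The median such window held 23 EGFP_OK peaks and 2 Pax6 peaks, and 15 of the 65 held no Pax6 peak. The largest difference was at chr1:109000001-110000000, with 35 EGFP_OK peaks, 1 Pax6 peak, 3 Etv6 peaks and 25 H3K4me2 peaks. Its ratio of EGFP_OK to scaled Pax6 was 20.5, with a counting interval of 3.44 to 832. Next came chr6:63000001-64000000, with 33 EGFP_OK peaks, 1 Pax6, 1 Etv6 and 10 H3K4me2 peaks. At chr10:32000001-33000000 the counts were 34, 2, 6 and 8 in the same order, and at chr3:110000001-111000000 they were 32, 2, 2 and 12. In these windows the EGFP_OK peaks outnumbered the H3K4me2 peaks, which in the series as a whole are the more numerous. The window chr11:39000001-40000000 held 28 EGFP_OK peaks and 0 Pax6 peaks, with 1 Etv6 and 5 H3K4me2 peaks. A count of 0 allows up to 3 Pax6 peaks in that window.

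The remaining EGFP_OK-rich windows among the first 10 by difference were like these. They were chr16:73000001-74000000 (36 EGFP_OK, 5 Pax6 peaks), chr17:76000001-77000000 (29 and 1), chr3:45000001-46000000 (29 and 1), chr3:117000001-118000000 (35 and 5) and chr1:26000001-27000000 (28 and 1). Over the 10 windows the H3K4me2 count ran from 5 to 25 with a median of 10, and the Etv6 count from 0 to 11 with a median of 2.5.

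The Pax6-rich windows kept more of the other list than the EGFP_OK-rich windows did. The median Pax6-rich window held 16 Pax6 and 7 EGFP_OK peaks, and 1 of the 61 held no EGFP_OK peak. The largest difference was at chr6:117000001-118000000, with 29 Pax6 peaks, 10 EGFP_OK peaks, 42 Etv6 peaks and 26 H3K4me2 peaks. Its ratio of scaled Pax6 to EGFP_OK was 4.95 (2.35 to 11.4). At chr13:32000001-33000000 the counts were 33, 17, 53 and 42 in the same order, the most Etv6 peaks of any Pax6-rich window. At chr16:93000001-94000000 they were 28, 12, 38 and 35. The others of the first 10 were chr2:52000001-53000000 (26 Pax6, 9 EGFP_OK peaks), chr8:129000001-130000000 (23 and 6), chr10:83000001-84000000 (25 and 10), chr12:74000001-75000000 (27 and 15), chr1:186000001-187000000 (21 and 6), chr13:60000001-61000000 (22 and 8) and chr18:5000001-6000000 (20 and 7). Over the 10 windows the H3K4me2 count ran from 20 to 45 with a median of 34.5, and the Etv6 count from 27 to 53.

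H3K4me2, which the choice of windows did not use, was sparse in the EGFP_OK-rich windows. They held a median of 11 H3K4me2 peaks (interval of the median 9 to 14), from 1 to 49. The Pax6-rich windows held a median of 22 (17 to 27), from 0 to 76, and the 560 tested windows that were not called held 28 (27 to 29). All 2346 windows with a peak had a median of 18. Fewer than 10 H3K4me2 peaks were found in 26 of the 65 EGFP_OK-rich windows (40%), in 15 of the 61 Pax6-rich windows (24.6%) and in 20 of the 560 windows not called (3.57%). The length in H3K4me2 peaks gave the same order, with medians of 16.7 kb, 36.4 kb and 51.9 kb per window. The 336 windows with at least 20 EGFP_OK peaks that were not called held a median of 28 H3K4me2 peaks. Their EGFP_OK count was below 3 times the scaled Pax6 count, whose median was 22.2. They were thus set apart from the EGFP_OK-rich windows by their Pax6 counts. Windows are not replicates of a library, so these medians are a description with no test.

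The Pax6-rich windows were of mixed density. Of the 61, 22 held 30 or more H3K4me2 peaks, which is 36.1%, against 3 of the 65 EGFP_OK-rich windows (4.62%) and 45.0% of the windows not called. At the other end, the window chr9:68000001-69000000 held 12 Pax6 peaks, 12 Etv6 peaks and no EGFP_OK or H3K4me2 peak, and chr3:39000001-40000000 held 18 Pax6, 26 Etv6, 8 EGFP_OK and 5 H3K4me2 peaks. The windows chr7:90000001-91000000 (22 Pax6, 11 EGFP_OK, 38 Etv6 and 9 H3K4me2 peaks) and chr16:6000001-7000000 (17, 5, 27 and 7) were of this kind too. These 4 were chosen after their values were seen, from the 15 with fewer than 10 H3K4me2 peaks, to show Pax6 and Etv6 peaks in places with little of the mark.

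Etv6 peaks, also outside the choice of windows, were few in the EGFP_OK-rich windows and many in the Pax6-rich windows. The EGFP_OK-rich windows held a median of 3 Etv6 peaks (1 to 4), from 0 to 19, with 16 of 65 at 0. The Pax6-rich windows held a median of 28 (25 to 30), from 5 to 53, and the tested windows that were not called 23 (22 to 24). The 336 uncalled windows with at least 20 EGFP_OK peaks held a median of 22 Etv6 peaks, against 11 over all windows with a peak. As for H3K4me2, that set differs from the EGFP_OK-rich windows through its Pax6 counts. Across the 2346 windows, Spearman's rho was 0.87 between Pax6 and Etv6 counts, 0.55 between EGFP_OK and Pax6 and 0.50 between EGFP_OK and Etv6. With H3K4me2 it was 0.47 for EGFP_OK, 0.61 for Pax6 and 0.80 for Etv6. The windows share their mappable length and base composition between libraries, so these values are a description. Pax6 counts were used to choose the windows and moved with Etv6 and H3K4me2 counts. The Etv6 and H3K4me2 counts of the called windows are thus not independent of that choice. The Pax6 and Etv6 titles share NS, and the part of the cells in this was not tested.

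**Figure D3:**
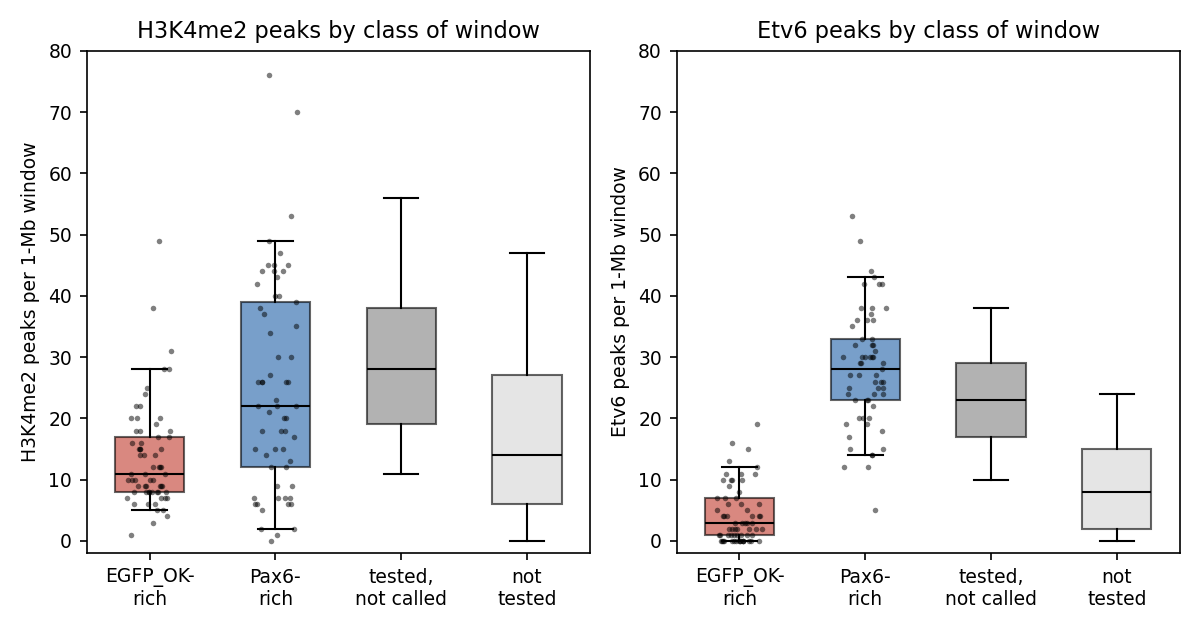
H3K4me2 peaks (left) and Etv6 peaks (right) per 1-Mb window by class of window. Boxes give quartiles and median, whiskers run from the 5th to the 95th percentile, and dots are single windows of the called classes. The median H3K4me2 count is 11 in EGFP_OK-rich, 22 in Pax6-rich and 28 in tested windows not called, and the median Etv6 count is 3, 28 and 23.

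Over all windows, the balance of the lists turned with H3K4me2 density. In the 250 windows with 1 to 4 H3K4me2 peaks the mean was 5.14 EGFP_OK peaks and 2.48 scaled Pax6 peaks, a ratio of 2.07 (1.84 to 2.34). The ratio was 1.59 (1.49 to 1.71) with 5 to 9 H3K4me2 peaks, 1.12 (1.08 to 1.17) with 10 to 19, 0.909 (0.874 to 0.946) with 20 to 29 and 0.824 (0.789 to 0.861) with 30 to 39. EGFP_OK peaks thus outnumbered scaled Pax6 peaks where H3K4me2 was sparse and were fewer where it was dense. Beyond 40 H3K4me2 peaks the ratio stayed below 1, at 0.816 (0.770 to 0.863) and, with 50 or more, 0.895 (0.833 to 0.961). Windows with no H3K4me2 peak did not follow this order: the 119 of them had a ratio of 0.799 (0.644 to 0.992), on 206 EGFP_OK and 151 Pax6 peaks. The EGFP_OK-rich windows were 3, 23 and 27 in the classes of 1 to 4, 5 to 9 and 10 to 19 H3K4me2 peaks, and the Pax6-rich windows 3, 11 and 11.

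**Figure D4:**
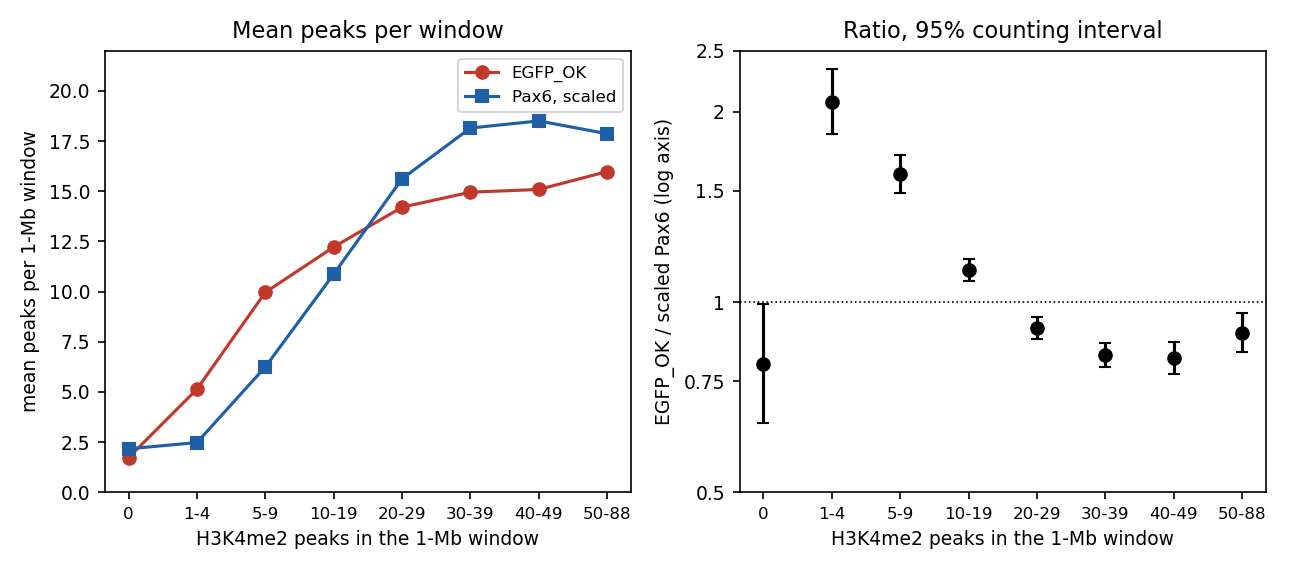
Mean EGFP_OK and scaled Pax6 peaks per 1-Mb window (left) and their ratio on a log axis (right) against the number of H3K4me2 peaks in the window. Bars on the right are exact 95% counting intervals. The ratio is 2.07 with 1 to 4 H3K4me2 peaks and 0.824 with 30 to 39, and windows with none lie below 1.

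Within the EGFP_OK-rich windows few of the EGFP_OK peaks lay in the mark. Of the 1568, 12.1% (10.5 to 13.8) had their summit in an H3K4me2 peak, against 28.5% (27.7 to 29.4) of those in tested windows not called and 29.2% (24.9 to 33.7) of the 432 in Pax6-rich windows. Their median distance to an H3K4me2 summit was 24326 bp, against 7251 bp in tested windows not called, where H3K4me2 peaks are denser. Counted per H3K4me2 peak, the share was not lower. Of the 881 H3K4me2 peaks in EGFP_OK-rich windows, 21.5% (18.8 to 24.3) held an EGFP_OK summit. The share was 19.8% (19.2 to 20.4) in tested windows not called and 8.20% (6.87 to 9.69) in Pax6-rich windows. The EGFP_OK counts that chose the windows bear on these shares, which are given as a description. The EGFP_OK peaks of EGFP_OK-rich windows were of similar strength to those of tested windows not called. The median was 51 tags and 7.06-fold, against 52 tags and 6.88-fold in tested windows not called, and 49.6% had a score of at least 100, against 47.3%. They were seldom shared: 40 of them (2.55%, 1.83 to 3.46) overlapped a Pax6 peak, which the low Pax6 count of these windows limits, and 89 (5.68%, 4.58 to 6.94) an Etv6 peak, against 23.9% in tested windows not called.

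The strongest EGFP_OK peak of each of the first 5 EGFP_OK-rich windows lay outside H3K4me2 and had no Etv6 peak. Most EGFP_OK peaks of EGFP_OK-rich windows were like this, with 12.1% in H3K4me2 and 5.68% with an Etv6 peak. The strongest peaks are thus not set apart by it. The 5 peaks were chr1:109568931-109570178 (117 tags, 16.8-fold), chr6:63901756-63903700 (244 tags, 11.98-fold), chr10:32595192-32596678 (174 tags, 13.4-fold), chr3:110495415-110497163 (194 tags, 11.2-fold) and chr11:39968063-39970131 (295 tags, 9.68-fold). Their summits were 5.72 to 46.6 kb from the nearest H3K4me2 summit.

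Within the Pax6-rich windows the Pax6 peaks lay in H3K4me2 less often than in windows not called or not tested. Of the 1060, 33.7% (30.8 to 36.6) had their summit in an H3K4me2 peak, against 44.7% (43.7 to 45.8) in tested windows not called and 45.5% (44.3 to 46.7) in windows not tested. An Etv6 peak overlapped 78.3% (75.7 to 80.7) of them, against 74.5% (73.5 to 75.4) in tested windows not called. Their median was 21 tags and 10.6-fold, against 21 tags and 10.4-fold. Etv6 summits in these windows lay in H3K4me2 less often as well, at 38.6% (36.3 to 41.0) against 50.4% (49.6 to 51.3). Counted per H3K4me2 peak, the Pax6 share was not lower in Pax6-rich windows. Of their 1524 H3K4me2 peaks, 23.4% (21.3 to 25.6) held a Pax6 summit, against 21.7% (21.1 to 22.4) in tested windows not called. The Pax6 counts that chose the windows bear on these shares. The strongest Pax6 peaks of the first 5 windows were chr6:117221017-117223032 (93 tags, 12.2-fold), chr13:32178040-32179120 (42 tags, 14.4-fold), chr16:93789237-93790194 (66 tags, 26.4-fold), chr2:52436038-52437162 (43 tags, 12.8-fold) and chr8:129780897-129781856 (107 tags, 19.9-fold). All 5 had an Etv6 peak, with its summit 1 to 123 bp away. The chr16 peak was the only one of the 5 in H3K4me2 and the only one with an EGFP_OK peak, of 88 tags.

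Some called windows were neighbours. The longest run was chr3:44000001-47000000, where 3 windows together held 76 EGFP_OK peaks, 1 Pax6 peak, 0 Etv6 peaks and 30 H3K4me2 peaks. Other EGFP_OK-rich pairs were chr1:26000001-28000000 (49 EGFP_OK, 3 Pax6 peaks), chr3:112000001-114000000 (51 and 8), chr3:117000001-119000000 (61 and 5) and chr10:31000001-33000000 (56 and 4). The Pax6-rich pairs were chr3:5000001-7000000 (28 Pax6, 13 EGFP_OK peaks), chr8:117000001-119000000 (29 and 8), chr8:129000001-131000000 (44 and 15) and chr9:62000001-64000000 (30 and 10). In all, 11 of the 65 EGFP_OK-rich and 8 of the 61 Pax6-rich windows stood in such runs. No EGFP_OK-rich window bordered a Pax6-rich one. Both kinds were rare among the 2346 windows with a peak. The number of runs or borders to expect was not worked out, so these counts are a description. The 106 windows next to EGFP_OK-rich windows held medians of 16 EGFP_OK, 5 Pax6 and 13 H3K4me2 peaks, so they leaned the same way. The 109 next to Pax6-rich windows held 10 EGFP_OK, 8 Pax6 and 21 H3K4me2 peaks.

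The called windows were spread unequally over the chromosomes, and so were the tested windows. Chromosome 3 held 12 of the 65 EGFP_OK-rich windows, on 86 tested windows. Chromosomes 1 and 16 held 9 each, on 65 and 47 tested. Chromosome 10 held 8 on 35 tested, and chromosome 5 held 5 on 22. Chromosome 9 held 13 of the 61 Pax6-rich windows, on 37 tested, and no EGFP_OK-rich window. Chromosomes 2, 8 and 7 held 7, 6 and 2 Pax6-rich windows, on 48, 20 and 14 tested, and no EGFP_OK-rich window. Chromosome 19, with 15 tested, had neither kind. Over all chromosomes, 9.48% of tested windows were EGFP_OK-rich and 8.89% Pax6-rich. The ratio of the EGFP_OK share of peaks to the Pax6 share was 1.22 on chromosome 3 and 0.680 on chromosome 9. With Pax6 counts scaled within each chromosome instead, chromosome 9 had 0 Pax6-rich windows and chromosome 2 had 1, while chromosome 3 still had 11 EGFP_OK-rich windows. Under that scaling, 61 of the 65 EGFP_OK-rich and 34 of the 61 Pax6-rich windows were called again. On chromosome 9 that scaling lowers the scaled Pax6 counts, which must reach the minimum of 20 as well as the 3-fold limit. The window chr9:68000001-69000000, with 12 Pax6 and 0 EGFP_OK peaks, passes any fold and lost its call through the minimum. The loss of all calls there thus does not show that each window followed the balance of the lists over that whole chromosome. The cause of that balance was not tested. The share of Pax6 peaks with an EGFP_OK peak also differed between chromosomes, from 14.6% on chromosome 8 to 27.3% on chromosome 19, and that of EGFP_OK peaks with a Pax6 peak from 8.41% on chromosome 14 to 15.6% on chromosome 19.

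**Figure D5:**
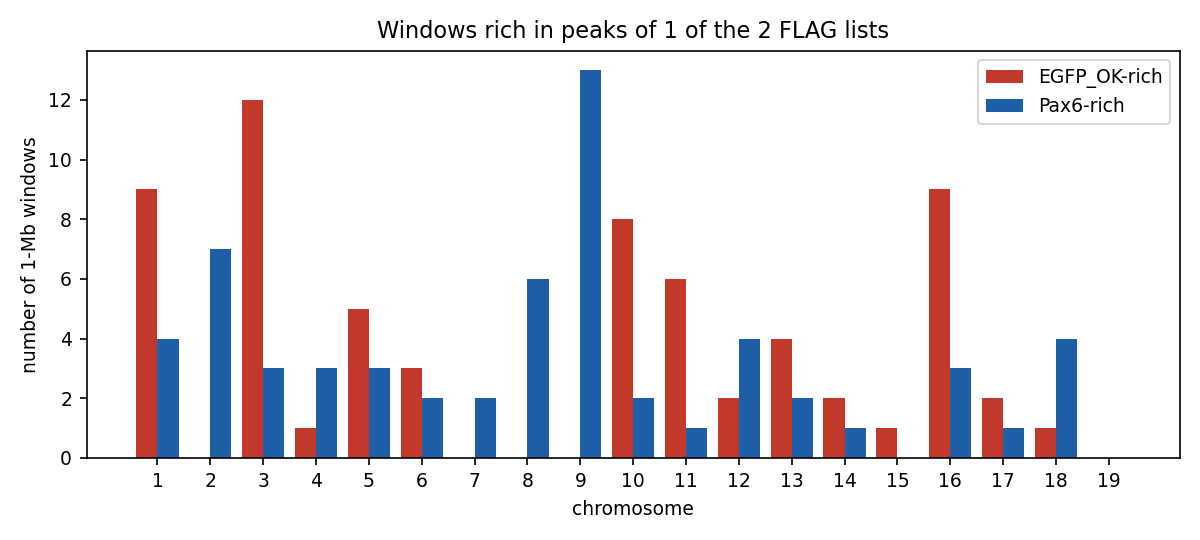
Number of EGFP_OK-rich and Pax6-rich 1-Mb windows (vertical axis) on each of chromosomes 1 to 19 (horizontal axis), with Pax6 scaled by the list lengths over all these chromosomes. Chromosome 3 has 12 EGFP_OK-rich windows, on 86 tested. Chromosome 9 has 13 Pax6-rich windows, on 37 tested, and none of the other kind.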

How the data were processed

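ChIP-seq peak lists of 4 libraries, 1 per group, were used. Tools listed in the submitters' processing notes are MACS 1.4.2, BWA 0.6.2 and CASAVA 1.8.1, with build mm9. Per the file headers, MACS 1.4.2 called peaks on each library alone, without a control, at a p cutoff of 1e-05 with at most 1 tag per position, so no list was corrected by an input library. The tag counts per peak were deposited by the authors without normalization. The deposited score is 10 times the −log10 p-value, and, per the file headers, fold enrichment is a ratio over local background. Both are the authors' values and only describe or rank peaks within a list.

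Overlaps and window counts were computed on chromosomes 1 to 19 with scipy 1.17.1, pandas 2.3.3 and numpy 2.4.6 under Python 3.11.15. The window and overlap steps were tested on simulated data. Windows start at position 1 of each chromosome. Intervals of medians come from order statistics. The named windows are the 10 with the largest difference of each kind and the pairs nearest the limit. The named peaks are the strongest of the first 5 windows, the 5 strongest unshared peaks of each list and the 10 best shared sites, and exceptions are stated. The members and lists were chosen with earlier results of these data known. Since the gene and promoter tables used another build (GRCm38), no gene names or sequences are given. Alternatives were other overlap criteria, window sizes, minimums, folds, score limits and scalings.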

Additional observations from a re-analysis of the deposited data

Results flagged for a closer look

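Peaks outside chromosomes 1 to 19 were left out of the comparison and were noted because each list held more than a count of 0 allows. On chromosome X there were 608 EGFP_OK and 371 Pax6 peaks. On chromosome Y and unplaced sequences there were 38 EGFP_OK and 42 Pax6 peaks.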

How the results depend on the processing

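Of the 82 recomputed values, 35 moved beyond the interval of the main value or, for numbers of windows, by over 1.5 times. These are single shares, counts, medians and ratios, and no change of direction was scored for them. The median H3K4me2 count was lower in EGFP_OK-rich than in Pax6-rich windows in 13 of 13 settings, and the median Etv6 count in 12 of 12. All settings reuse the same 4 lists and choose windows by Pax6 counts, which moved with H3K4me2 and Etv6 counts. The number of settings with this order is thus no separate support for it. The number of windows called depended most on the settings, and which kind was the more numerous changed between them. EGFP_OK-rich and Pax6-rich windows numbered 218 and 220 with 0.5-Mb windows, 18 and 10 with 2-Mb windows, 106 and 151 at 2-fold, and 237 and 115 with a minimum of 10. With the EGFP_OK list shortened to the Pax6 length by score they numbered 13 and 25, and with scores of at least 100 they numbered 4 and 51. These shorter lists reach the minimum of 20 less often. With the minimum lowered in proportion, a choice made after seeing the data, the shortened list gave 82 and 89 windows and the score limit 126 and 185. Under the score limit Pax6 counts are multiplied by more than in the main setting, so fewer Pax6 peaks make a Pax6-rich window.

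The EGFP_OK and Pax6 overlap shares were 11.1% and 19.1% with 50% of the shorter peak shared, 7.39% and 12.6% by summits within 200 bp, 5.25% and 16.0% with scores of at least 100, and 13.7% and 13.8% with equal lengths. The median H3K4me2 count of EGFP_OK-rich windows was 15.5 with FLAG scores of at least 100 (on the 4 windows), 15 with the lowered minimum and 6 with H3K4me2 scores of at least 100. That of Pax6-rich windows was 29.8 with 2-Mb windows, 29 with FLAG scores of at least 100 and 14 with H3K4me2 scores of at least 100. The median Etv6 count of EGFP_OK-rich windows was 6 at 2-fold, 6 with equal lengths, 7.5 with scores of at least 100 and 6.5 with the lowered minimum. That of Pax6-rich windows was 20 with a minimum of 10, 34 with equal lengths and 22 with scores of at least 100 and the lowered minimum. The ratio in windows with 1 to 4 H3K4me2 peaks was 1.804 with scores of at least 100. Leaving out chromosomes 3 and 9, also chosen after seeing the data, left 53 and 45 windows. The causes of these moves were not tested. No paired analysis was possible because each group held 1 library. The 5288154 kept tags of the Pax6 library bear on every statement on missing Pax6 peaks.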
